A study of Saccharomyces cerevisiae with 12 samples.

Results

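The genes described are 10 amino acid permeases of the yeast Saccharomyces cerevisiae: DIP5, AGP1, AGP3, BAP2, BAP3, GNP1, TAT1, TAT2, MUP1 and HIP1. They were taken as the permeases named by the platform annotation that are induced by amino acids outside the cell or that carry one class of amino acid. All 10 were found, each with a single probe set, among 5656 genes with a probe set of their own, and all 10 were among the 5400 genes tested. The systematic names are YPL265W for DIP5, YCL025C for AGP1, YFL055W for AGP3, YBR068C for BAP2, YDR046C for BAP3, YDR508C for GNP1, YBR069C for TAT1, YOL020W for TAT2, YGR055W for MUP1 and YGR191W for HIP1.

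Transcripts were measured in CEN.PK113-7D, a prototrophic haploid laboratory strain of mating type a, grown without oxygen in chemostats, vessels in which the rate of medium supply sets the growth rate. The dilution rate was 0.03 per hour in every culture. The 4 groups of 3 separately grown cultures were limited by carbon at 12 °C, by carbon at 30 °C, by nitrogen at 12 °C and by nitrogen at 30 °C, with 1 Affymetrix array per culture. The labels call the medium defined and synthetic and do not name its nitrogen source or say whether it held amino acids.

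Yeast takes up amino acids through a family of related permeases of the plasma membrane. A sensor complex made of Ssy1, Ptr3 and Ssy5 detects amino acids outside the cell and releases the transcription factors Stp1 and Stp2, which then switch on a set of permease genes that includes AGP1, GNP1, BAP2, BAP3, TAT1 and DIP5. Another set, with the general permease GAP1 and the proline permease PUT4, is repressed while good nitrogen sources are plentiful and is opened when nitrogen runs short.

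Signals are linear probe set intensities, already scaled by the authors so that the 12 arrays share a common level. Signals of 12 or less were set to a floor of 12, since values that dim have no order, and fold changes near the floor are understated. Across arrays 22.3% to 26.8% of all probe sets lay at or under the floor, and the median signal ranged from 41.2 to 51.4. Replicates spread more at 12 °C, where the SD of log2 signal in the median gene was 0.26 with carbon and 0.28 with nitrogen limiting, than at 30 °C, where it was 0.18 with either, and the number of arrays limits the precision. The 3' to 5' signal ratio of ACT1 ran from 1.12 to 1.87 at 12 °C and from 1.69 to 1.91 at 30 °C. The same ratio of the TBP control was higher. At 12 °C it ran from 2.94 to 3.97 with carbon and from 2.08 to 3.13 with nitrogen limiting. At 30 °C it ran from 2.59 to 3.34 and from 3.01 to 3.22. The a-cell markers MFA1, MFA2, STE2, STE6, BAR1 and ASG7 were above the floor on all 12 arrays, and their summed signal ran from 7579 to 11606 at 30 °C and from 7072 to 14845 at 12 °C. ASG7 was higher at 12 °C, by 1.98 (carbon) and 2.56 (nitrogen) on the log2 scale. The 4 alpha-cell markers of the opposite mating type were also read, with sums of 360.1 to 540 under carbon and 361 to 517.4 under nitrogen limitation at 30 °C, and of 1413 to 1880 and 2387 to 3395 at 12 °C. Most of this was the alpha-factor gene MF(ALPHA)1, at 164.1 to 387.3 at 30 °C and 1057 to 2630 at 12 °C. No array at 30 °C read MF(ALPHA)2 above the floor, and the 6 at 12 °C read 25 to 151, while STE3 and SAG1 were higher at 12 °C under nitrogen limitation (by 0.83 and 1.01) and did not pass under carbon limitation (0.62 and 0.49). Whether this bears on the permease signals was not tested. In bulk RNA scaled to a common level, fewer cells that express a gene and less of its RNA per cell cannot be told apart.

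The permeases followed 2 main patterns. For 8 of the 10 genes (AGP1, BAP2, BAP3, GNP1, TAT1, TAT2, MUP1 and HIP1) all 3 arrays of carbon-limited cultures at 30 °C were higher than all 9 other arrays, a pattern chosen after the values were seen and shown by 6.52% of tested genes. DIP5 was high in both groups at 30 °C and near the floor in both groups at 12 °C. AGP3 stayed between 7.7 and 21 on every array, with 5 of 12 arrays at or under the floor.

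**Figure D1:**
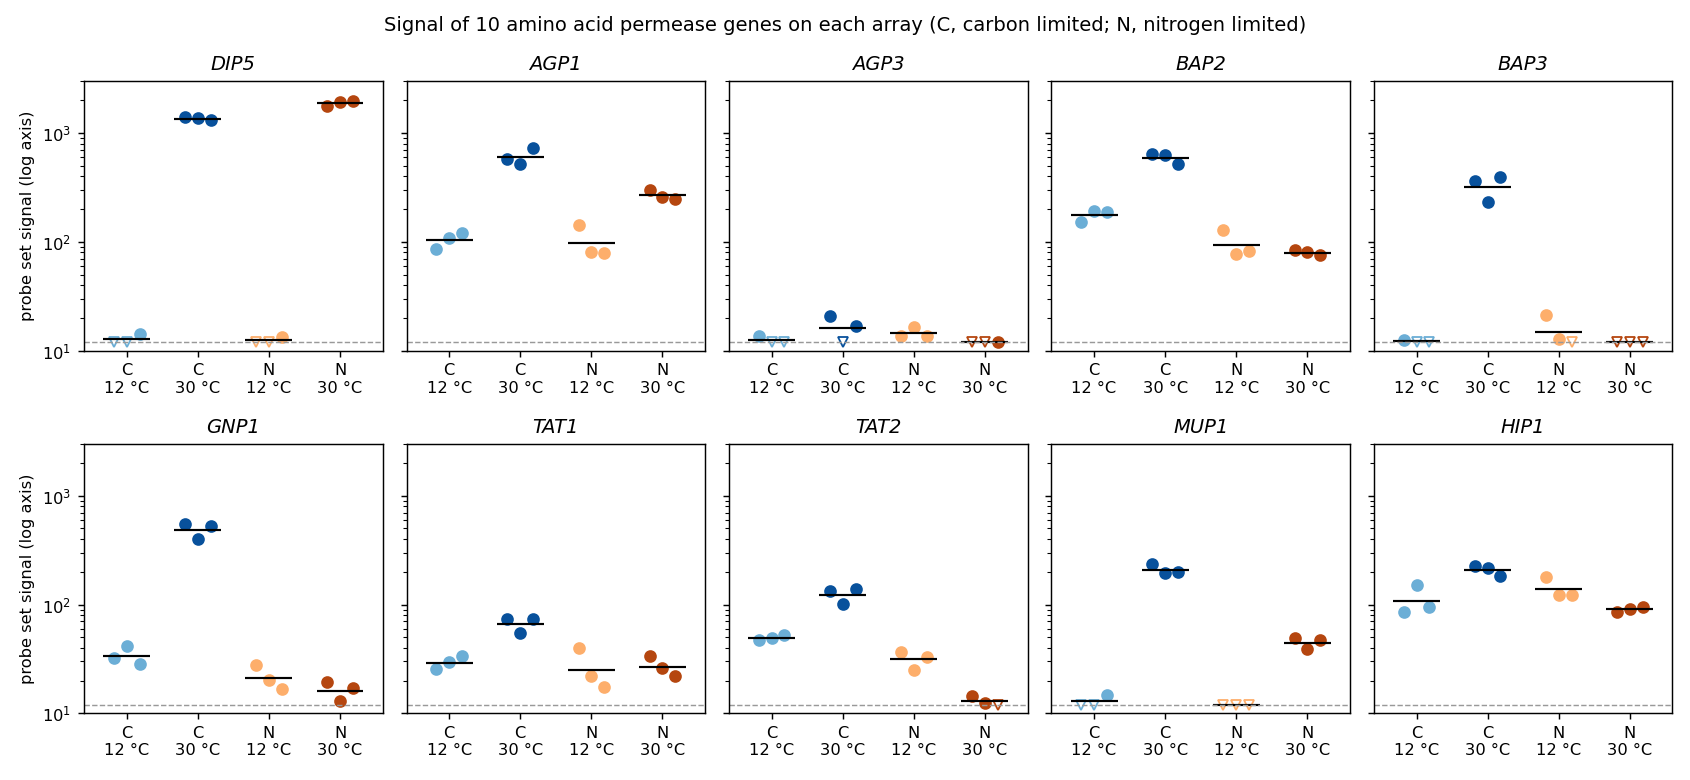
Signal of each of the 10 permease genes on each of the 12 arrays, on a log axis, in the 4 groups. Each circle is 1 array, an open triangle is an array at or under the floor of 12 (dashed line), and the bar is the mean on the log scale of the 3 arrays. DIP5 is high in both groups at 30 °C, and 8 other genes are highest in carbon-limited cultures at 30 °C.

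DIP5 encodes the permease for glutamate and aspartate. Its signals in carbon-limited cultures were 1390.3, 1366.8 and 1312.4 at 30 °C and 10.4, 8.4 and 14.3 at 12 °C. In nitrogen-limited cultures they were 1779.2, 1924.4 and 1979.7 at 30 °C and 10.1, 11 and 13.3 at 12 °C. Every array at 30 °C was far above every array at 12 °C, where 4 of 6 arrays lay at or under the floor. The fall at 12 °C was 107-fold under carbon limitation (log2 change -6.74 ± 0.16 SE, limma adjusted p = 9.53e-14) and 152-fold under nitrogen limitation (-7.25 ± 0.16, adjusted p = 2.99e-14). It was the largest fall of all 5400 genes under each limitation. Both folds are understated because of the arrays at the floor, and the SE does not cover the choice of floor. Over the alternatives the smallest log2 falls were -4.76 under carbon and -5.24 under nitrogen limitation.

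The order of the 30 °C groups was the reverse of that of the other permeases: DIP5 was 1.4-fold higher under nitrogen than under carbon limitation (limma adjusted p = 0.0402), and the 3 arrays of each group did not overlap. This call was lost with median scaling (adjusted p = 0.0666) and without any single one of the 6 arrays at 30 °C (adjusted p from 0.0713 without nitrogen replicate 1 to 0.124 without nitrogen replicate 3, with 0.0997, 0.0992 and 0.12 without carbon replicates 1, 2 and 3 and 0.121 without nitrogen replicate 2). At 12 °C the limitations could not be separated for DIP5 this near the floor (log2 difference -0.03, 95% interval -0.38 to 0.31).

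BAP3 encodes a permease for branched-chain amino acids such as leucine, valine and isoleucine. Carbon-limited cultures read 360.7, 231.6 and 392.8 at 30 °C and 12.5, 11.2 and 8.7 at 12 °C. Nitrogen-limited cultures read 3.9, 5.6 and 5.1 at 30 °C and 21.1, 12.7 and 10.6 at 12 °C. The signal was therefore clearly above the floor in carbon-limited cultures at 30 °C and at most 21.1 on the other 9 arrays. BAP3 fell 26.3-fold at 12 °C under carbon limitation (limma adjusted p = 1.11e-09) and was at least 26.7-fold lower under nitrogen than under carbon limitation at 30 °C (adjusted p = 1.37e-09), where all 3 nitrogen-limited arrays lay under the floor.

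GNP1 encodes a permease for glutamine and some other neutral amino acids. Its signals were 548.9, 396.3 and 524.5 in carbon-limited cultures at 30 °C, and 32.0, 41.9 and 28.3 at 12 °C. In nitrogen-limited cultures they were 19.4, 12.9 and 17.0 at 30 °C and 27.6, 20.3 and 16.7 at 12 °C. Only carbon-limited cultures at 30 °C exceeded 41.9. GNP1 was 29.9-fold lower under nitrogen than under carbon limitation at 30 °C (log2 difference -4.90 ± 0.25 SE, limma adjusted p = 1.37e-09). On the floored values this was the largest fall of all 5400 genes in that comparison, with BAP3 next. The fall of BAP3 is a lower bound, so the order of these genes was not settled. Under carbon limitation GNP1 fell 14.4-fold at 12 °C (adjusted p = 2.09e-08).

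BAP2, which also carries branched-chain amino acids, was measured well above the floor in every group. Carbon-limited cultures read 641, 627.9 and 518 at 30 °C and 151.8, 191.9 and 186.8 at 12 °C. Nitrogen-limited cultures read 83.4, 80.2 and 75.7 at 30 °C and 129, 77.2 and 82.9 at 12 °C. The order of the group means was carbon at 30 °C, carbon at 12 °C, nitrogen at 12 °C and nitrogen at 30 °C, and the last 2 overlapped. BAP2 fell 3.37-fold at 12 °C under carbon limitation (limma adjusted p = 1.46e-05), and at 30 °C it was 7.44-fold lower under nitrogen limitation (adjusted p = 5.75e-08).

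MUP1, the high-affinity methionine permease, resembled both patterns in part. Its signals were 234, 196.6 and 199.3 in carbon-limited cultures at 30 °C and 9.0, 10.4 and 14.8 at 12 °C. In nitrogen-limited cultures they were 49.2, 38.8 and 47.0 at 30 °C and 10.3, 10.2 and 11.1 at 12 °C. Both groups at 30 °C lay above both at 12 °C, and the carbon-limited arrays at 30 °C lay above the nitrogen-limited ones. MUP1 fell 16.3-fold at 12 °C under carbon limitation (limma adjusted p = 4.5e-10) and at least 3.73-fold under nitrogen limitation (adjusted p = 1.7e-06), and at 30 °C it was 4.68-fold lower under nitrogen limitation (adjusted p = 4.25e-07).

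TAT2, the high-affinity permease for tryptophan and tyrosine, read 134.5, 100.5 and 139.7 in carbon-limited cultures at 30 °C and 47.2, 49.3 and 52.7 at 12 °C. Nitrogen-limited cultures read 14.4, 12.4 and 10.4 at 30 °C and 37, 25.2 and 33.2 at 12 °C. The direction of the temperature effect was opposite in the 2 limitations, and in neither did the arrays overlap. At 12 °C TAT2 fell 2.49-fold under carbon limitation (limma adjusted p = 0.000288) and rose 2.44-fold under nitrogen limitation (adjusted p = 0.000228). At 30 °C it was 9.59-fold lower under nitrogen than under carbon limitation (adjusted p = 1.9e-08). The nitrogen-limited arrays at 30 °C lay near the floor, so the size of this fall depends on the floor.

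AGP1, a permease of broad range and low affinity, read 573.3, 524.3 and 725 in carbon-limited cultures at 30 °C and 85.7, 107.6 and 120 at 12 °C. Nitrogen-limited cultures read 297.3, 259.7 and 247.2 at 30 °C and 143.2, 81.3 and 79.6 at 12 °C. The groups at 12 °C overlapped, and each lay below its counterpart at 30 °C. AGP1 fell 5.82-fold at 12 °C under carbon limitation (limma adjusted p = 9.06e-07) and 2.74-fold under nitrogen limitation (adjusted p = 0.000159), and at 30 °C it was 2.25-fold lower under nitrogen limitation (adjusted p = 0.0015).

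TAT1, which carries tyrosine, tryptophan and branched-chain amino acids, ranged from 54.3 to 73.9 in carbon-limited cultures at 30 °C and from 17.5 to 40.3 on the other 9 arrays. It was 2.28-fold lower at 12 °C under carbon limitation (limma adjusted p = 0.00546) and, at 30 °C, 2.47-fold lower under nitrogen limitation (adjusted p = 0.0028). HIP1, the high-affinity histidine permease, ranged from 182.4 to 227.3 in carbon-limited cultures at 30 °C, from 85.1 to 151.6 at 12 °C, and in nitrogen-limited cultures from 85.5 to 94.9 at 30 °C and from 121.4 to 178.2 at 12 °C. HIP1 fell 1.94-fold at 12 °C under carbon limitation (adjusted p = 0.00628) and was 2.29-fold lower under nitrogen limitation at 30 °C (adjusted p = 0.00135). AGP3, a less studied permease, passed the threshold in no comparison (its lowest adjusted p was 0.0929, for limitation at 30 °C). Without replicate 2 of carbon limitation at 30 °C, the 1 array of that group under the floor, AGP3 passed at adjusted p = 0.0243 for temperature under carbon limitation and 0.0161 for limitation at 30 °C.

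Under carbon limitation, most of the permeases were lower at 12 °C. Of the 10 genes 9 fell, none rose and AGP3 did not pass, against 12.6% of all tested genes that fell, 13.1% that rose and 25.7% called in either direction. Arrays of the 2 temperatures did not overlap for the same 9 permeases, against 42.7% of all genes. The median log2 change was -2.15 for the 10 genes and 0.03 for all tested genes. The list was chosen with earlier results of these data known, so its shares here and in the comparisons below are descriptions. Ranked from the largest fall among 5400 genes, DIP5, BAP3, MUP1, GNP1 and AGP1 stood at places 1, 5, 8, 9 and 32. The size of the larger falls depends on the floor: with a floor of 50 the log2 changes of DIP5, BAP3, MUP1 and GNP1 were -4.76, -2.68, -2.07 and -3.28, with calls kept, and that of TAT1 was -0.42 in place of -1.19.

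Under nitrogen limitation, the permeases called for temperature did not share a direction, and the calls of a rise depended on the processing. DIP5, MUP1 and AGP1 fell at 12 °C, TAT2 and HIP1 rose, and BAP2, BAP3, GNP1, TAT1 and AGP3 did not pass. The 5 of 10 called are not far from the 38.2% of all genes called in either direction, 22.3% lower and 15.9% higher. Arrays did not overlap for 6 of 10, also not far from the 48.9% of all genes. The median log2 change was 0.25 for the 10 genes and -0.10 for all tested genes. For the genes that did not pass, the 95% intervals of the log2 change ran from -0.20 to 0.67 for BAP2, -0.21 to 0.81 for BAP3, -0.15 to 0.91 for GNP1, -0.70 to 0.48 for TAT1 and -0.12 to 0.66 for AGP3.

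HIP1 rose 1.53-fold at 12 °C under nitrogen limitation (limma adjusted p = 0.0465), a call that was lost in 11 of 22 alternatives. Without replicate 1 of nitrogen limitation at 12 °C its adjusted p was 0.158. Without replicate 1, 2 or 3 of nitrogen limitation at 30 °C it was 0.122, 0.099 or 0.0802, and without replicate 1, 2 or 3 of carbon limitation at 30 °C, which enter through the shared spread, 0.061, 0.0597 or 0.0569. The rise of TAT2 was not measured with a floor of 50, which hides both groups, and did not pass with a floor of 25 (adjusted p = 0.139). The fall of MUP1 was likewise not measured with a floor of 50. With quantile normalization the median change of all genes in this comparison shifted by 0.12 and with median scaling by 0.20, and the split of calls went from 857 higher and 1206 lower to 1071 and 930, or 1309 and 807. GNP1 passed with quantile normalization (log2 change 0.66, limma adjusted p = 0.0498) and BAP3 with a pseudocount in place of the floor (0.65, adjusted p = 0.0131).

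**Figure D2:**
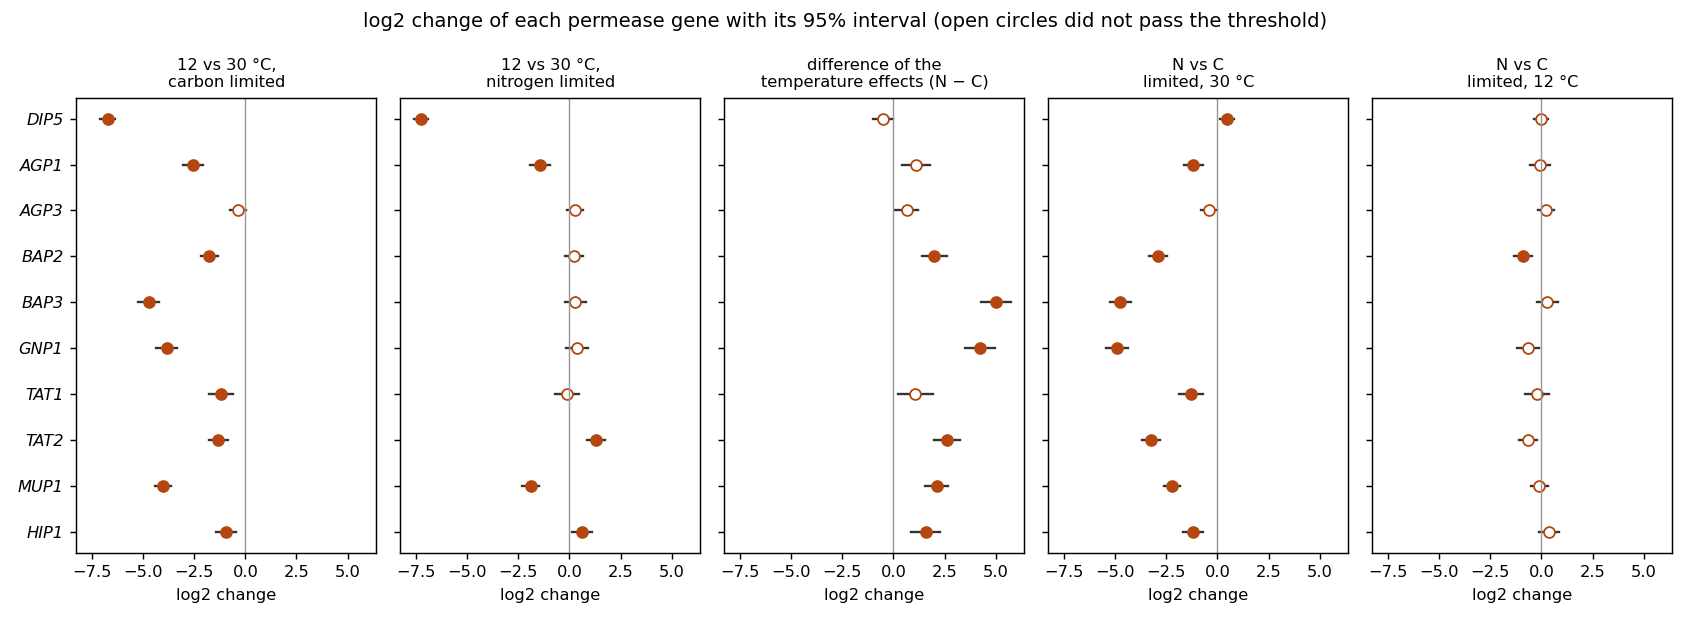
log2 change of each permease gene in the 5 comparisons, with its 95% interval from the fit of all 12 arrays. Filled circles passed the threshold of an adjusted p of 0.05 and open circles did not. Under carbon limitation 9 of 10 genes are lower at 12 °C, and for nitrogen against carbon limitation at 12 °C only BAP2 passed the threshold.

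The temperature effect itself was compared between the limitations. It differed for BAP3, GNP1, TAT2, BAP2 and HIP1, each of which fell at 12 °C under carbon limitation and either rose or did not pass under nitrogen limitation. MUP1 also passed, but 5 of its 6 arrays at 12 °C lay at or under the floor, so neither of its falls was measured in full and their difference mainly restates the gap between the limitations at 30 °C (-2.23). BAP3 had 6 of 12 arrays at or under the floor, among them all 3 nitrogen-limited arrays at 30 °C. Its temperature effect under nitrogen limitation was therefore not measured in full, and its difference too mainly restates the gap at 30 °C (-4.74). Of the 10 genes 6 were higher in this difference and none lower, against 2.91% of all genes higher, 4.54% lower and 7.44% in either direction. The difference (nitrogen minus carbon, log2) was 5.02 ± 0.34 SE for BAP3 (limma adjusted p = 9.64e-08) and 4.23 ± 0.35 for GNP1 (adjusted p = 1.59e-06), the 2 highest of 5400 genes. It was 2.60 for TAT2 (adjusted p = 5.5e-05), 2.12 for MUP1 (adjusted p = 0.000114), 1.99 for BAP2 (adjusted p = 0.000527) and 1.57 for HIP1 (adjusted p = 0.00762). GNP1 and TAT2 also lay near the floor in nitrogen-limited cultures at 30 °C, so the sizes of their differences depend on the floor. Over the alternatives the difference ran from 3.28 to 4.46 for GNP1 and from 1.28 to 2.82 for TAT2, with calls kept.

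For DIP5, likewise near the floor at 12 °C, the difference did not pass (-0.52, 95% interval -1.01 to -0.02, adjusted p = 0.199). A floor of 25 or 50 sets all 6 arrays at 12 °C to the same value. The difference of -0.48 then only restates the gap between the limitations at 30 °C (0.48). It passed (limma adjusted p = 0.00755 and 0.00218), but this is no separate test of the temperature effect. AGP1 lay just beyond the threshold (1.09, 95% interval 0.40 to 1.77, adjusted p = 0.0527) and passed in 5 of 21 alternatives, among them without replicate 2 or 3 of nitrogen limitation at 12 °C (adjusted p = 0.0437 and 0.0371). TAT1 did not pass (1.08, 95% interval 0.24 to 1.91, adjusted p = 0.109), and passed with a floor of 25 (adjusted p = 0.0382) and without replicate 3 of nitrogen limitation at 12 °C (adjusted p = 0.047). AGP3 did not pass (0.65, adjusted p = 0.148), and passed without replicate 2 of carbon limitation at 30 °C (adjusted p = 0.0447). Over all genes 157 were higher and 245 lower in this difference, which became 227 and 220 with quantile normalization and 266 and 170 with median scaling, the latter with a shift of the median by 0.16.

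At 30 °C, 8 of the 10 permeases were lower under nitrogen than under carbon limitation, DIP5 was higher and AGP3 did not pass. Of all genes 12.6% were lower, 14.3% higher and 26.9% called in either direction. Arrays did not overlap for 9 of 10 permeases and for 50.9% of all genes. The median log2 difference was -1.77 for the 10 genes and 0.04 for all tested genes. On the floored values GNP1, BAP3, TAT2, BAP2 and MUP1 stood at places 1, 2, 7, 9 and 20 from the largest fall. The fall of BAP3 is a lower bound, so its place relative to GNP1 was not settled. This comparison and that of temperature under carbon limitation share the 3 carbon-limited arrays at 30 °C, so the falls in both are not independent of each other.

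At 12 °C, few permeases separated the limitations. BAP2 was 1.87-fold lower under nitrogen limitation (limma adjusted p = 0.0219) and the other 9 did not pass, against 5.67% of all genes called in either direction, 3.85% lower and 1.81% higher. Arrays did not overlap for BAP2, GNP1 and TAT2, 3 of 10 genes, against 21.1% of all genes. The call of BAP2 was lost when only the 2 groups at 12 °C were fitted (adjusted p = 0.241), without replicate 2 or 3 of carbon limitation (adjusted p = 0.0575 and 0.0606) and without replicate 2 of nitrogen limitation (adjusted p = 0.0826). For GNP1 and TAT2 the log2 differences were -0.67 (95% interval -1.20 to -0.14, adjusted p = 0.125) and -0.66 (-1.11 to -0.21, adjusted p = 0.0828), and TAT2 passed with a floor of 25 (adjusted p = 0.0491). DIP5, BAP3 and MUP1 were at or near the floor in both groups, so a difference in their levels was not detectable there. The intervals of AGP1, TAT1 and HIP1 ran from -0.57 to 0.40, -0.82 to 0.36 and -0.12 to 0.86. The median difference was -0.09 for the 10 genes and -0.05 for all tested genes, and with median scaling 159 genes were higher and 142 lower in place of 98 and 208.

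**Figure D3:**
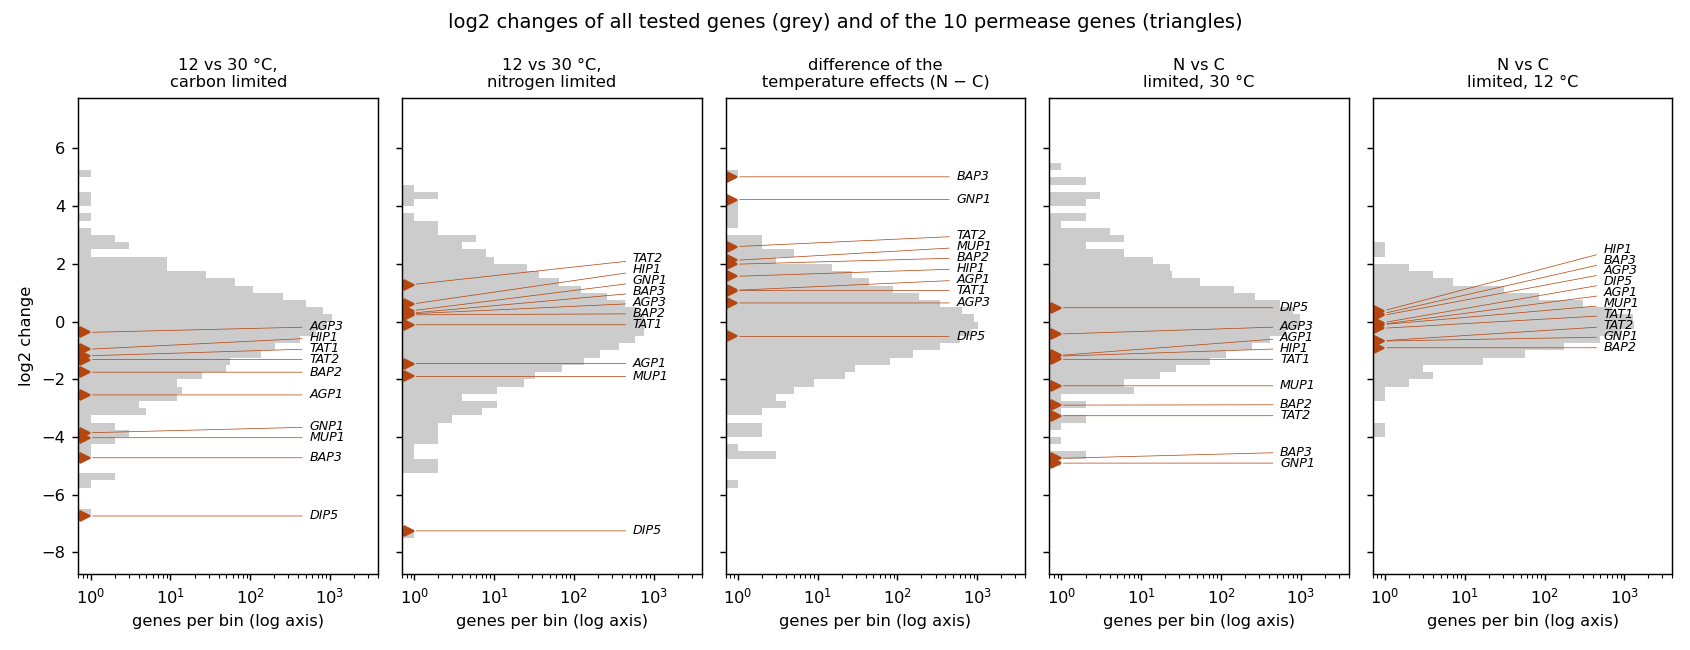
Number of tested genes by log2 change in each of the 5 comparisons (grey bars, log axis), with the 10 permease genes marked by triangles and named. DIP5 is the lowest of 5400 genes for temperature under both limitations, and GNP1 and BAP3 are the 2 lowest for nitrogen against carbon limitation at 30 °C.

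Of 11 other plasma membrane permeases of amino acids and peptides, 6 were higher, 1 lower and 4 not called under nitrogen against carbon limitation at 30 °C (14.3% and 12.6% of all genes were higher and lower), with a median of 0.87. GAP1, the general amino acid permease, read 82.3, 85.3 and 70.1 under carbon limitation and 3131.6, 3467.9 and 3911.1 under nitrogen limitation at 30 °C, a 44.2-fold rise where the 8 permeases above fell. PUT4, which takes up proline, rose 12.2-fold and PTR2, the peptide transporter, 3.2-fold. MMP1, the S-methylmethionine permease, fell 5.57-fold, from 293.7, 310.3 and 263.8 to 48.9, 54.7 and 52.0, and as in the 8 permeases its carbon-limited arrays at 30 °C were above all others.

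In these 11 genes, temperature under carbon limitation lowered 3 and raised 1 (12.6% and 13.1% of all genes), with a median of -0.07. PTR2 fell 12.2-fold and MMP1 3.14-fold at 12 °C, and GAP1 rose 1.76-fold. PUT4 fell 1.7-fold (limma adjusted p = 0.0434) on dim arrays that overlapped, 10.3 to 22.5 at 12 °C and 19.8 to 39.7 at 30 °C. Under nitrogen limitation 5 fell and 1 rose (22.3% and 15.9% of all genes), with a median of -0.28. PTR2 fell 34.2-fold, GAP1 15.2-fold and PUT4 15.1-fold, and SAM3 rose 1.92-fold. The temperature effect differed between the limitations in 5 of the 11 (7.44% of all genes), lower for GAP1, PUT4, PTR2 and UGA4 and higher for MMP1, with a median of -0.74. The difference was -4.74 for GAP1 (limma adjusted p = 6.74e-09) and 1.90 for MMP1 (adjusted p = 0.00459). At 12 °C 2 of the 11 were higher under nitrogen limitation, GAP1 (1.65-fold) and SAM3 (2.03-fold), which carries S-adenosylmethionine, and none was lower (5.67% of all genes were called, median 0.45).

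SSY1, which encodes the amino acid sensor itself, ranged from 19 to 36.2 over all 12 arrays and passed in no comparison. Of 12 genes of amino acid sensing, 3 fell at 12 °C under carbon limitation, STP1 (1.96-fold), STP2 (1.83-fold) and DAL81 (2.19-fold), which encodes an activator that works with the Stp factors, and none rose. These 3 of 12 lie near the share of all genes called (25.7%, with 12.6% lower). Under nitrogen limitation 6 fell and none rose (38.2% of all genes were called, 22.3% lower), with DAL81 at 2.97-fold, PTR3 at 2.89-fold, STP2 at 2.73-fold and STP1 at 1.73-fold. The list's median was -0.29 under carbon and -0.43 under nitrogen limitation.

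At 30 °C the signals of STP1 were 145.8, 137.3 and 142.5 under carbon limitation and 133.7, 132.3 and 147.6 under nitrogen limitation, and the groups overlapped. PTR3 and the protease gene SSY5 were higher under nitrogen limitation at 30 °C (1.85-fold and 1.79-fold), the casein kinase gene YCK2 was lower (1.53-fold) and the median was 0.18, and of all genes 26.9% were called. At 12 °C none of the 12 separated the limitations (median -0.13). The temperature effect differed between limitations for PTR3 alone among the 12 (-1.12, limma adjusted p = 0.0451), with a median of -0.30.

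SHR3, whose product folds and packages amino acid permeases for export, rose 1.5-fold at 12 °C under carbon limitation (limma adjusted p = 0.0474) and 1.85-fold under nitrogen limitation (adjusted p = 0.00331). Under carbon limitation its arrays overlapped, with a lowest signal of 931.5 at 12 °C and a highest of 989 at 30 °C. Of 14 genes of permease exit from the endoplasmic reticulum and of turnover, SHR3 rose and LST7, a regulator of permease traffic, fell (1.84-fold) under carbon limitation (median -0.10, with 25.7% of all genes called), and 3 fell beside the rise of SHR3 under nitrogen limitation (median -0.29, with 38.2% of all genes called): ALY1 by 2.5-fold and ALY2 by 2.46-fold, both adaptors of the ubiquitin ligase that sends permeases to the vacuole, and the kinase gene NPR1 by 1.72-fold. The fall of ALY2 rests in part on 1 array under the floor, with 25.5, 3.1 and 25.7 at 12 °C under nitrogen limitation. At 30 °C NPR1 was 2.32-fold and ALY1 1.71-fold higher under nitrogen limitation, the 2 of 14 called against 26.9% of all genes (median 0.10). None of the 14 was called at 12 °C (median 0.02), and NPR1 alone differed in its temperature effect (-1.20, adjusted p = 0.00348, median -0.23).

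Of 13 listed vacuolar transporters of amino acids 12 were tested, and the probe set of VBA3 names several genes. At 30 °C, 5 were higher and 1 lower under nitrogen limitation (14.3% and 12.6% of all genes, median 0.53), with VBA1 at 8.66-fold and AVT4 at 3.64-fold higher. Under nitrogen limitation 5 fell and 2 rose at 12 °C (22.3% and 15.9% of all genes, median -0.51), with VBA1 6.68-fold and AVT6 2.87-fold lower and YPQ1, an exporter of basic amino acids, 2.7-fold higher. Under carbon limitation YPQ1 and AVT1 rose and AVT6 fell (median 0.14), a share near the 25.7% of all genes. The temperature effect differed for AVT4 and VBA1 (median -0.49), and at 12 °C AVT4 was higher under nitrogen limitation (median 0.13).

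**Figure D4:**
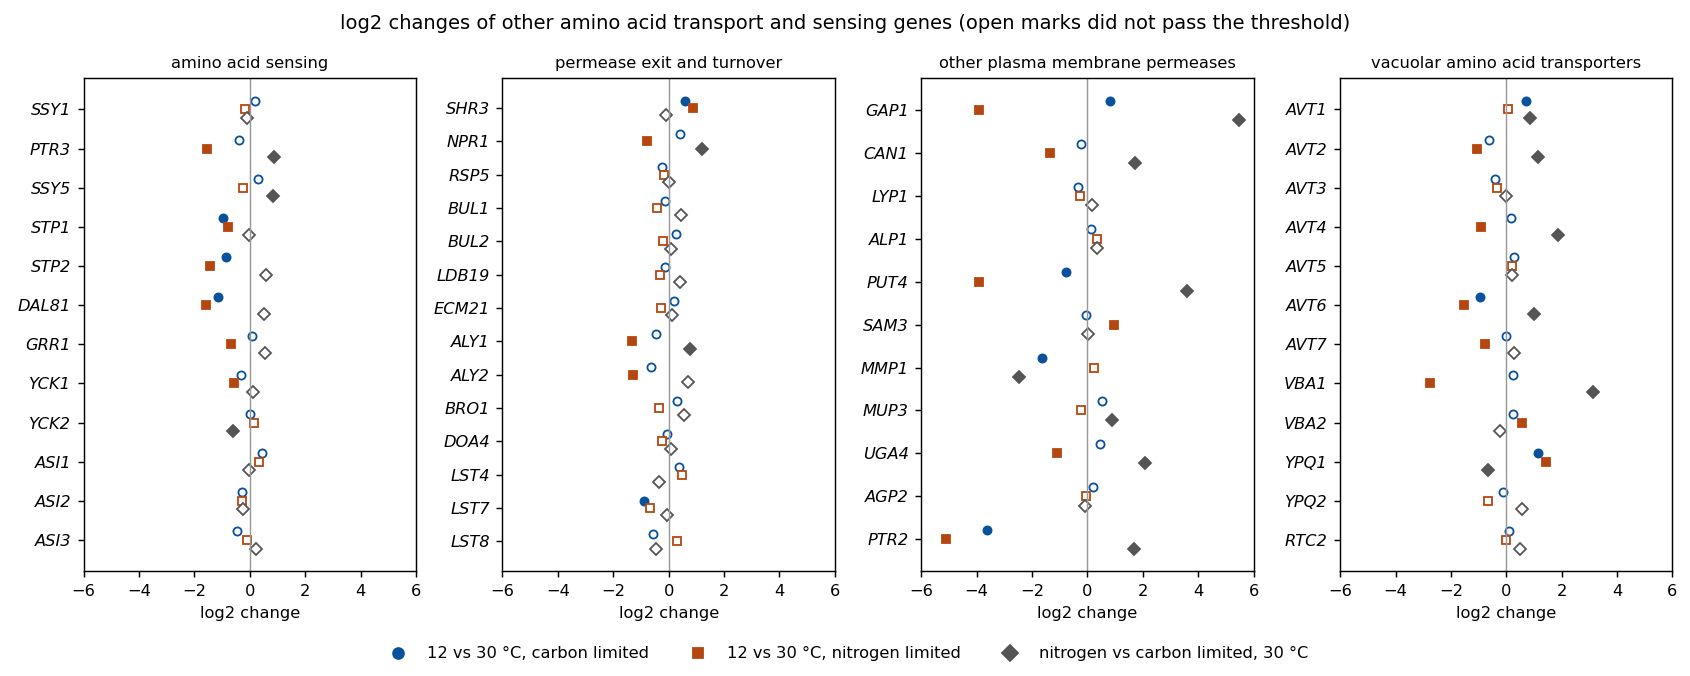
log2 changes of the other genes of amino acid sensing, permease exit and turnover, plasma membrane transport and vacuolar transport, for 3 comparisons. Filled marks passed the threshold and open marks did not. GAP1, PUT4 and PTR2 are higher under nitrogen limitation at 30 °C and MMP1 is lower.

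Likeness to DIP5 was measured as the Pearson correlation of log2 signal over the 12 arrays, which share the 4 groups and so mostly reflect group means. Among the other permeases of the list AGP1 (0.88) and MUP1 (0.86) were most like DIP5, and BAP2 (0.29), HIP1 (0.13) and TAT2 (-0.04) were among the least. The most similar named genes outside the list were SUF6, a glycine tRNA gene (0.988), IZH4, a membrane protein of zinc homeostasis (0.985), CRS5, a metallothionein (0.983), NRS1 (0.981), PIN3, known for inducing a prion (0.981), and RTS3 (0.98), after YNL194C, which has a systematic name only (0.989). The name of the SUF6 probe set marks it as one that can read several sequences. PTR2 reached 0.967. CRS5 fell from 786 ± 79.3 to 104 ± 6.93 at 12 °C under carbon limitation and from 601 ± 56.8 to 90.2 ± 19.2 under nitrogen limitation (SD, n = 3), the same order as DIP5 for temperature with a smaller ratio.

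**Figure D5:**
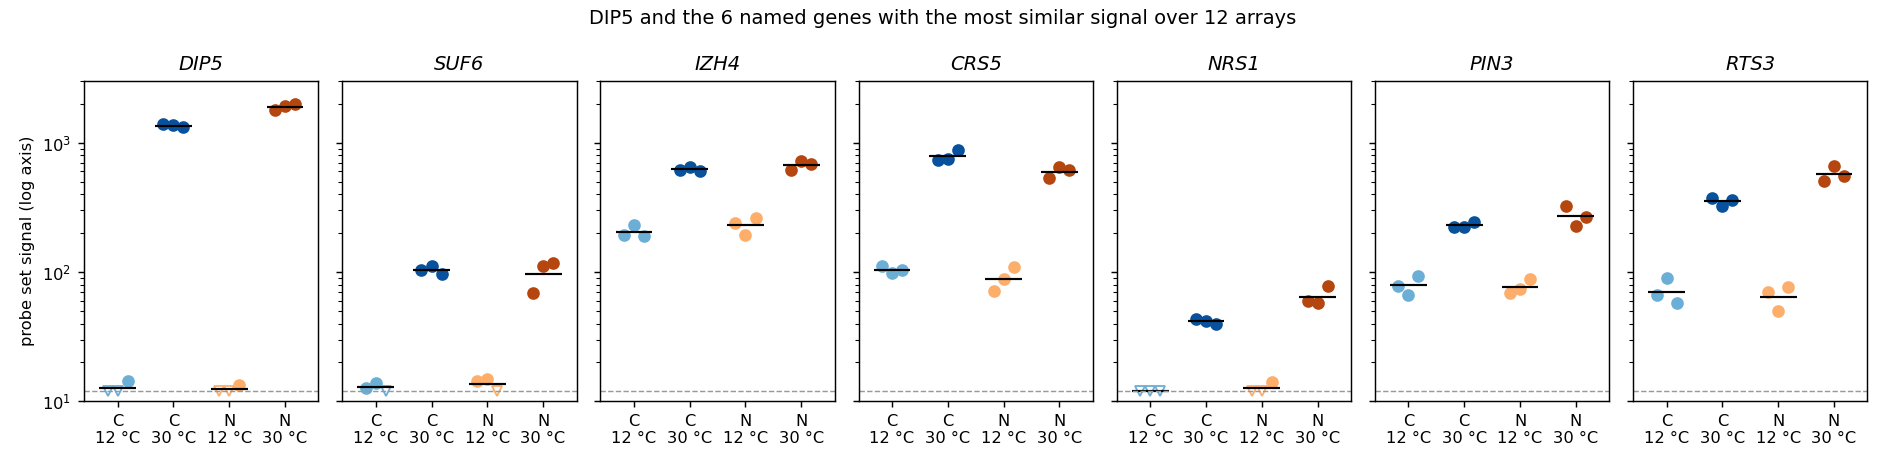
Signal on each array, on a log axis, of DIP5 and of the 6 named genes with the highest correlation with it over the 12 arrays (0.98 to 0.988). Symbols and groups are those of the plot of permease signals. All 7 genes are higher on every array at 30 °C than on any array at 12 °C.

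BAP2 and TAT1 lie next to each other in the R64 gene table, and at 30 °C both were lower under nitrogen limitation. Of 16 tested neighbours outside the list 4 were called for temperature under carbon limitation, against 25.7% of all genes, and 4 for limitation at 30 °C, against 26.9%. The neighbours of DIP5 were DIM1, with a log2 change of -0.03 under carbon and 0.86 under nitrogen limitation at 12 °C, and YPL264C, with 1.70 and 1.08. Because the permeases resemble each other in sequence, their probes may cross-read, although none of the 10 probe set names carries the letter suffix that can mark shared probes.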

How the data were processed

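The authors' deposited values are linear probe set intensities of 12 Affymetrix arrays, made with GCOS per the submitters' processing notes. No source used here gives its version, the algorithm or the target of the scaling. The mean intensity after trimming 2% at each end was 150.1 on every array. Of 9335 probe sets, 6504 had 1 gene in the platform annotation, 328 several and 2503 none listed. Each gene was represented by its brightest probe set (by mean of log2 values), values below 12 were set to 12, and 256 genes that did not exceed 12 on at least 3 arrays were dropped. Group means of all 12 arrays were fitted with limma 3.58.1 (lmFit, eBayes with trend) in R 4.3.3, with Benjamini-Hochberg adjustment over 5400 genes and a threshold of 0.05. The model was tested on simulated data with moderate changes in brighter genes and, for each gene, the same spread in all groups. That test did not cover falls to the floor or the wider spread at 12 °C. For 3 against 3 arrays the smallest p of an exact two-sided permutation test is 0.1, so no such test is given.

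Groups and replicate numbers came from the titles, and no batch is given. Named genes were all 10 permeases, up to 4 called members of each other list with the largest change (others named with a count were chosen after their values were seen), and the 6 named genes most correlated with DIP5. The permeases and lists were chosen with earlier results of these data known. Alternatives covered the floor, the filter, scaling, probe sets, variance model, replicate block and each array left out. Promoter motifs and protein sequences were not analysed here.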

Additional observations from a re-analysis of the deposited data

Results flagged for a closer look

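For 6 permeases the effect of 12 °C against 30 °C differed between the limitations by the test of the difference itself (log2, nitrogen minus carbon limitation). The difference was 5.02 for BAP3, 4.23 for GNP1, 2.60 for TAT2, 2.12 for MUP1, 1.99 for BAP2 and 1.57 for HIP1. Of the arrays behind these values, BAP3 had 2 carbon-limited and 1 nitrogen-limited array at or under the floor at 12 °C and all 3 nitrogen-limited arrays at 30 °C, and TAT2 had 1 nitrogen-limited array at 30 °C. MUP1 had 2 carbon-limited and 3 nitrogen-limited arrays at or under the floor at 12 °C. For BAP3 and MUP1 the difference in temperature effect was therefore not measured in full. GNP1 had no array at or under the floor, but its nitrogen-limited arrays read only 12.9 to 27.6. Over the alternatives its difference ran from 3.28 to 4.46, and that of TAT2 from 1.28 to 2.82. Groups of 3 arrays were too small for a search for single outlying arrays.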

How the results depend on the processing

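Among 1090 repeated values of single permeases (10 genes, 5 comparisons and up to 22 alternatives), 654 belonged to calls, of which 628 were kept and 26 lost, and 436 to values that had not passed, of which 421 still did not and 15 did. None that was called changed sign. The number of permeases called for temperature under nitrogen limitation was 5, and 2 with a floor of 50 and 3 with a floor of 25, where fewer arrays have a measured value. For limitation at 12 °C it was 1, and 2 with a floor of 25 and 0 with only the groups compared, and it ranged from 0 to 1 with 1 array left out. Over all genes, 306 were called for limitation at 12 °C, 153 with a floor of 50 and 4 with only the groups compared, and leaving out 1 array gave 128 to 394. Below 204 were 196 and 133 without carbon replicates 2 and 3 at 12 °C, 193 and 201 without carbon replicates 1 and 3 at 30 °C, 128 without nitrogen replicate 2 at 12 °C and 196 without nitrogen replicate 2 at 30 °C. For the difference of temperature effects 402 genes were called, 246 to 480 with 1 array left out (246 and 249 without carbon replicates 1 and 2 at 30 °C, 261 and 248 without nitrogen replicates 1 and 2 at 30 °C). For temperature under carbon limitation 1386 were called, 921 to 1690 with 1 array left out (921 without carbon replicate 1 at 30 °C). The cause was not tested.

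Replicate numbers did not pair the samples: of 12 same-numbered pairs 3 had deviations that correlated above 0.1 (-0.20 to 0.18). With the replicate block, 28 of 30 calls of permeases stayed, those of DIP5 for limitation at 30 °C (adjusted p = 0.0627) and HIP1 for temperature under nitrogen limitation (adjusted p = 0.0583) were lost, none was gained, and 1304, 1982, 344, 1375 and 252 genes were called for temperature under carbon limitation, under nitrogen limitation, their difference, and limitation at 30 °C and 12 °C.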
